A study of Mus musculus with 47 samples.

Results

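Claudin-5 (*Cldn5*) and 9 other genes of the blood-brain barrier were followed in the mouse cortex over the day, in mice with microglia and in mice depleted of them. The 10 genes are *Cldn5*, *Ocln*, *Tjp1*, *Cldn12*, *Slc2a1*, *Abcb1a*, *Mfsd2a*, *Pecam1*, *Cdh5* and *Esam*, taken by symbol from the 54281 genes of the expression table. All 10 passed the filter, a mean of 1 TPM or more over all libraries, as did 14580 genes in all. TPM is a share of the library's transcripts, corrected for transcript length. *Cldn5* was chosen for its 24-h rhythm in control mice, so that rhythm is described without a test. *Pecam1* and *Cdh5* were chosen as a measure of how much endothelial RNA a library held.

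The study used male C57BL/6J mice of about 3 months, which received control chow or AIN-76A chow with 1200 ppm PLX5622 for 10 days. The drug inhibits the receptor CSF1R, without whose signal microglia die, and other macrophages carry this receptor too. Cortex was taken after perfusion every 4 h from ZT2 to ZT22 (Zeitgeber time in h, with lights on at ZT0 and off at ZT12). Each group held 4 mice with 1 library each, apart from 3 at ZT14 on control chow, which gave 23 control and 24 PLX5622 libraries. The comparisons ask whether barrier genes keep their level and their daily course when microglia are removed.

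The blood-brain barrier is formed by the endothelial cells of brain capillaries. Tight junctions seal the gap between neighbouring cells, and claudin-5 is the main claudin of these junctions. Nutrients then have to pass through transporters, pumps return foreign compounds to the blood, and transport in vesicles is kept low. Pericytes and astrocyte endfeet surround the vessel and help to maintain it.

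The tissue and the treatment were checked by marker genes first. The 8 microglia markers all fell with PLX5622 (8 of 8 called in limma), and their summed level was 304.0 to 489.7 TPM in control mice and 18.2 to 78.3 TPM in PLX5622 mice. The 20 genes of the endothelial identity list were all measured, with a summed level of 279 to 403 TPM in control mice and 290.0 to 405 TPM in PLX5622 mice. Markers of choroid plexus, a tissue outside the cortex, ranged from 70.0 to 1195 TPM in control mice and from 149 to 1278 TPM in PLX5622 mice. Blood markers also varied widely between libraries, from 267 to 3034 TPM in control mice and from 193 to 2919 TPM in PLX5622 mice. Between 16597987 and 27626161 reads were counted per library. In bulk cortex, fewer endothelial cells and less RNA per endothelial cell cannot be told apart. Nor do bulk libraries show from which cell type, endothelial or other, a member's RNA came.

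By level, *Cldn5* led the members with 64.9 ± 14.5 TPM (SD, n = 47), followed by *Slc2a1* with 49.1 ± 11.4 TPM and *Tjp1* with 36.6 ± 6.57 TPM. Then came *Cldn12* with 20.9 ± 6.14 TPM, *Mfsd2a* with 18.6 ± 4.71 TPM, *Esam* with 15.0 ± 2.01 TPM and *Abcb1a* with 13.1 ± 2.14 TPM. *Pecam1* with 10.7 ± 1.53 TPM, *Cdh5* with 5.88 ± 1.20 TPM and *Ocln* with 5.27 ± 1.20 TPM closed the order. *Cldn5* was above *Slc2a1* in 33 of 47 libraries, and *Pecam1* was above *Cdh5* in 47 of 47. At ZT14 the mean of *Slc2a1* was above that of *Cldn5*, with 66.2 against 53.3 TPM in control and 71.7 against 57.9 TPM in PLX5622 mice. The same held at ZT10 in PLX5622 mice (51.6 against 42.6 TPM). From *Cldn12* down to *Abcb1a*, and between *Cdh5* and *Ocln*, neighbouring means differed by less than the larger of their SDs. The rarest member, *Ocln*, still had at least 166 reads in every library.

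*Cldn5* was highest at the start of the light phase and lowest at its end in both diets. In control mice at ZT2 the 4 libraries had 77.3, 81.1, 91.8 and 91.4 TPM. At ZT10 they had 55.8, 58.4, 42.7 and 51.0 TPM, so the groups did not overlap. The control mean was 85.4 ± 7.34 TPM at ZT2, 70.9 ± 8.99 TPM at ZT6 and 52.0 ± 6.90 TPM at ZT10 (SD, n = 4). It stayed there at ZT14 (53.3 ± 6.74 TPM, n = 3) and ZT18 (52.1 ± 4.81 TPM) and was 76.8 ± 7.33 TPM at ZT22. These control values are those on which *Cldn5* was chosen.

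In PLX5622 mice, whose rhythm was not the ground of that choice, *Cldn5* was again highest at ZT2 and lowest at ZT10. The choice was made with earlier results of these data known, so these mice are not a fully separate check. The 4 libraries at ZT2 had 90.0, 87.2, 86.0 and 75.3 TPM. At ZT10 they had 48.4, 47.7, 35.9 and 38.4 TPM, again with no overlap. Means were 84.6 ± 6.41 TPM at ZT2, 63.3 ± 1.58 TPM at ZT6, 42.6 ± 6.36 TPM at ZT10, 57.9 ± 10.0 TPM at ZT14, 63.3 ± 2.82 TPM at ZT18 and 73.5 ± 2.15 TPM at ZT22 (SD, n = 4). The fold from the lowest to the highest time was 1.99 with PLX5622 and 1.64 on control chow. JTK_CYCLE, a rank test for waves of a fixed period, gave a 24-h rhythm in PLX5622 mice with an adjusted p of 0.00801 and its peak phase at ZT0. *Cldn5* was the 1 member of 10 called in PLX5622 mice, where 0.494% of all genes tested were called.

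**Figure D1:**
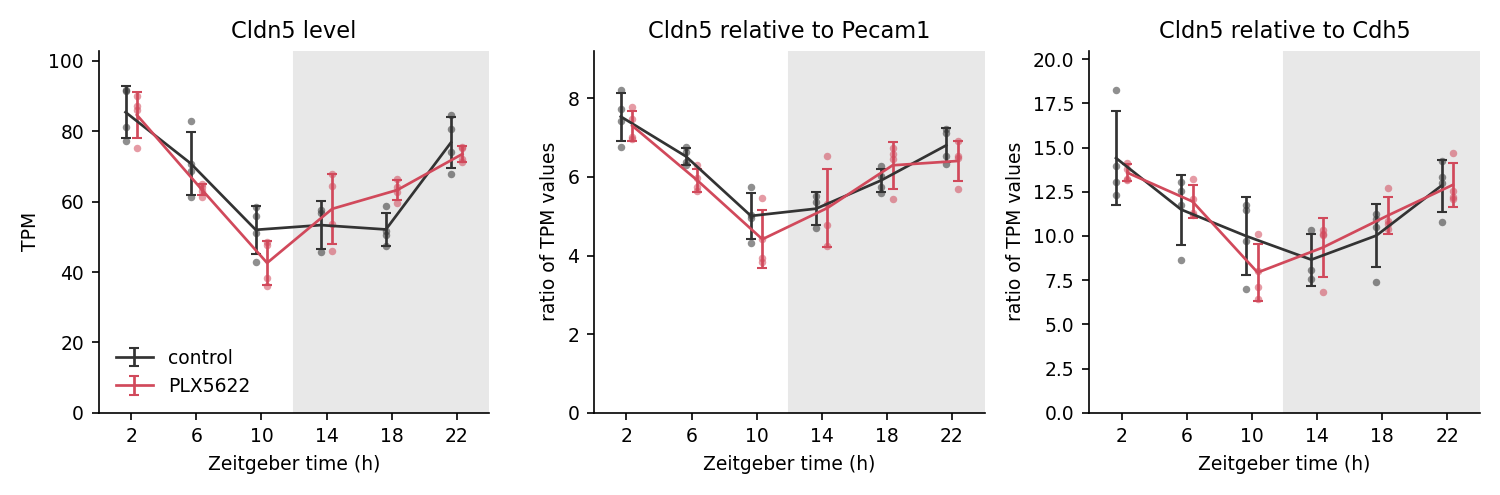
*Cldn5* in each mouse by Zeitgeber time (h), as TPM on the left and as the ratio of its TPM to that of *Pecam1* (middle) and *Cdh5* (right). Points are mice (black control, red PLX5622), lines join group means, bars are the SD and grey marks the dark phase. In all 3 panels and both diets ZT2 has the highest mean, and the *Cldn5* level at ZT10 was 52.0 TPM in control and 42.6 TPM in PLX5622 mice.

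A cosine fitted to log2(TPM + 1) put the size of the *Cldn5* rhythm at an amplitude of 0.40 ± 0.06 (SE) in control mice and 0.39 ± 0.05 in PLX5622 mice. The amplitude differed by -0.02 on this log2 scale, with a 95% interval from -0.17 to 0.14. An amplitude at least as large was found in 232 genes in control mice and in 225 genes in PLX5622 mice, out of 14580. The fitted peak lay at ZT1.66 ± 0.50 h in control mice and at ZT23.6 ± 0.53 h in PLX5622 mice, which is 2.03 ± 0.73 h earlier with PLX5622. The limma F test of the interaction of diet with time gave an unadjusted p of 0.0299 for *Cldn5* and an adjusted p above 0.99. No member was called for a difference in rhythm between the diets (0 of 10), and neither was any other gene tested (0%). Before adjustment, 669 genes had a p under 0.05 in this limma test. The control amplitude in this comparison is one that *Cldn5* was chosen on.

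*Cldn5* also varied over the day relative to endothelial markers. The ratio of *Cldn5* to *Pecam1* in control mice was 7.53 ± 0.611 at ZT2 and 5.01 ± 0.582 at ZT10 (SD, n = 4). In PLX5622 mice it was 7.30 ± 0.381 at ZT2 and 4.41 ± 0.741 at ZT10. The control ratios hold the *Cldn5* values on which the gene was chosen, and both are given as a description. Relative to *Cdh5*, the ratio was 14.4 ± 2.67 at ZT2 and 9.99 ± 2.19 at ZT10 in control mice, and 13.6 ± 0.472 and 7.93 ± 1.59 in PLX5622 mice. In control mice the ratio to *Cdh5* was lowest at ZT14, with 8.66 ± 1.46 (n = 3). As log2 ratios, the amplitude to *Pecam1* was 0.30 ± 0.03 (SE) in control mice and 0.31 ± 0.05 in PLX5622 mice, and that to *Cdh5* was 0.35 ± 0.06 and 0.37 ± 0.05. Relative to the mean log2 level of the endothelial identity list, the amplitude was 0.42 ± 0.02 and 0.40 ± 0.05, while that mean itself had an amplitude of 0.05 ± 0.05 and 0.05 ± 0.04. Single genes of the list had a median amplitude of 0.11 in control and 0.12 in PLX5622 mice. The largest was that of *Vwf*, with 0.51 ± 0.13 and 0.32 ± 0.13, peaking at ZT12.5 and ZT18.2. Peak times differed within the list, and a mean over such genes can be flatter than its single genes. *Kdr*, with 0.19 ± 0.07 and 0.21 ± 0.07, peaked at ZT3.19 and ZT23.6, nearer to *Cldn5*.

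Of the members, 3 move substances across the barrier. *Slc2a1* (GLUT1) carries glucose from the blood into the brain, *Mfsd2a* carries lipids that bear docosahexaenoic acid and holds vesicle transport down, and *Abcb1a* encodes a P-glycoprotein that pumps drugs back to the blood. Each had its highest mean at ZT14, shortly after lights off, in both diets, with overlapping groups for *Abcb1a* on control chow, and JTK_CYCLE called none of them. For sequence context, the 250 bases before the RefSeq start of the 3 members with the largest amplitudes are shown (GRCm38.p6, on the gene's strand). They are *Cldn5* at chr16:18776597-18776846 (+), *Slc2a1* at chr4:119108495-119108744 (+) and *Mfsd2a* at chr4:122961189-122961438 (-), with capitals for any of the motifs named in the next paragraph.
Cldn5: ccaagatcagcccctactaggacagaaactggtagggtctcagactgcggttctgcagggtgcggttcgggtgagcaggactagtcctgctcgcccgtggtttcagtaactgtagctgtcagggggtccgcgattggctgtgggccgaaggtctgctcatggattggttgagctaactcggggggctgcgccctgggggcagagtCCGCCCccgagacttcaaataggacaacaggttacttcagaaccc
Slc2a1: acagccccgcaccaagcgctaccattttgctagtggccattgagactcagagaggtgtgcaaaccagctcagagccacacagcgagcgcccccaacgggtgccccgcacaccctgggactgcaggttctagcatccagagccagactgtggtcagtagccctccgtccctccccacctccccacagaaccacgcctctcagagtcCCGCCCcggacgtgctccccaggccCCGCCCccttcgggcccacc
Mfsd2a: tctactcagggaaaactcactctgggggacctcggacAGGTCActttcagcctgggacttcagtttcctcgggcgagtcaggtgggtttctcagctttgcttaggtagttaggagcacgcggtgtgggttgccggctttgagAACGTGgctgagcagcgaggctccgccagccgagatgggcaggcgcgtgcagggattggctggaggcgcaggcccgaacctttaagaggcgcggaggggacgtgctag

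The motifs were searched on both strands. The E-box CACGTG, to which the clock proteins BMAL1 and CLOCK bind, was in none of these 3 windows and in 6.02% of all 32851 windows of this length. Its variant CACGTT was found once, in *Mfsd2a*, 103 to 108 bases before the start, and in 3.85% of all windows. *Mfsd2a* also held the nuclear receptor core AGGTCA, which 14.02% of windows held. The GC box GGGCGG stood in *Cldn5*, 40 to 45 bases before the start, and at 2 places in *Slc2a1*, and in 32.7% of all windows. The ETS core CCGGAA, found in 12.03% of windows, was in none of these 3. A match or its absence describes the letters of these windows and nothing more. Windows were at hand for 7 of the 10 members.

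*Slc2a1* in PLX5622 mice at ZT14 had 70.9, 60.8, 76.7 and 78.4 TPM. At ZT6, its lowest time there, the 4 mice had 38.7, 41.4, 43.7 and 39.3 TPM, so the groups were well apart. The 3 control mice at ZT14 had 68.0, 56.2 and 74.4 TPM, and the 4 control mice at ZT2, the lowest control time, had 33.2, 37.7, 39.6 and 50.1 TPM. The highest mean exceeded the lowest 1.76-fold with PLX5622 (71.7 ± 7.97 against 40.8 ± 2.26 TPM, SD, n = 4) and 1.65-fold on control chow (66.2 ± 9.20 TPM, n = 3, against 40.1 ± 7.14 TPM, n = 4). The fitted peaks lay at ZT14.5 ± 0.84 h and ZT13.96 ± 0.95 h (SE). JTK_CYCLE did not call *Slc2a1* in either diet, with an adjusted p of 0.123 with PLX5622 and 0.509 on control chow.

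*Mfsd2a* varied little between mice at ZT14. It had 24.4, 25.6 and 25.7 TPM in the 3 control mice and 27.0, 25.5, 26.3 and 26.6 TPM in the 4 PLX5622 mice. At ZT6, its lowest time in both diets, control mice had 11.5, 11.4, 18.2 and 16.7 TPM and PLX5622 mice had 12.3, 12.3, 15.6 and 9.98 TPM. With PLX5622, all other 20 mice lay below the 4 mice at ZT14, while on control chow 2 mice at ZT22 (25.7 and 25.2 TPM) reached the level of ZT14. The fold between these times was 2.10 with PLX5622 and 1.75 on control chow, and the amplitude was 0.42 ± 0.07 (SE) and 0.26 ± 0.08. The amplitude differed by 0.16 between diets, with a 95% interval from -0.05 to 0.37. JTK_CYCLE gave an adjusted p of 0.0538 with PLX5622 and 0.880 on control chow, so it was not called in either.

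A test for any difference between the 6 times, which assumes no wave form, was added after the values of *Slc2a1* and *Mfsd2a* were seen. In this limma F test with time as a factor, *Mfsd2a* (adjusted p = 0.00409) and *Slc2a1* (adjusted p = 0.0139) were called in PLX5622 mice beside *Cldn5* (adjusted p = 5e-04), 3 of 10 members where 1.03% of all genes were called. In control mice neither was called (adjusted p of 0.177 for both), and 0.377% of all genes were. When the cosine was tested by limma in place of JTK_CYCLE, *Mfsd2a* (adjusted p = 0.00559) and *Slc2a1* (adjusted p = 0.0428) were also called in PLX5622 mice. On the counts, edgeR called both genes in both diets, with adjusted p-values of 0.0221 for *Slc2a1* and 0.00656 for *Mfsd2a* in control mice. By JTK_CYCLE with median-of-ratios scaling, *Mfsd2a* (adjusted p = 0.0115) and *Slc2a1* (adjusted p = 0.0447) were called in PLX5622 mice as well, and *Mfsd2a* was also called when any 1 of 4 libraries was left out. These alternatives also called more genes over all. JTK_CYCLE called 72 of 14580 genes in PLX5622 mice, the limma cosine 135 and JTK_CYCLE with that scaling 157. In control mice JTK_CYCLE called 12, and edgeR called 252 of 18274 there and 387 in PLX5622 mice. The calls for these 2 transporters thus changed with the test and the scaling, and that for *Cldn5* in PLX5622 mice held in all alternatives run.

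*Abcb1a* in PLX5622 mice had 14.4, 13.1, 17.5 and 16.8 TPM at ZT14, its highest time there. At ZT6, its lowest, it had 10.9, 10.7, 10.9 and 10.0 TPM. On control chow its values ran from 10.0 to 16.2 TPM, and its highest and lowest groups overlapped. The amplitude was 0.18 ± 0.06 (SE) with PLX5622 and 0.03 ± 0.06 on control chow, a difference of 0.15 with a 95% interval from -0.02 to 0.32. With PLX5622, JTK_CYCLE gave an adjusted p of 0.302 and the limma test for any difference between times 0.246, so neither called it. *Abcb1a* shares most of its sequence with *Abcb1b*, so reads may have been split between the genes. It overlaps other gene models on both strands, as do *Tjp1* and *Slc2a1*, and *Cdh5* overlaps one on the opposite strand.

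**Figure D2:**
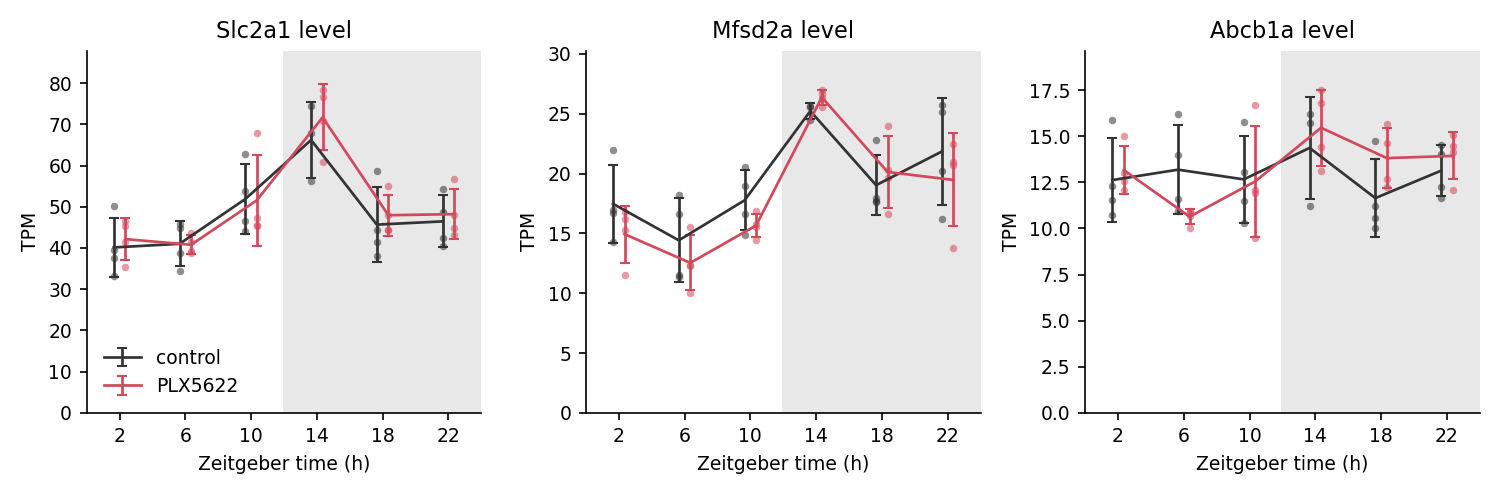
*Slc2a1*, *Mfsd2a* and *Abcb1a* in TPM for each mouse by Zeitgeber time (h). Points are mice (black control, red PLX5622), lines join group means, bars are the SD and grey marks the dark phase. All 3 genes have their highest mean at ZT14 in both diets, with *Mfsd2a* at 25.2 and 26.4 TPM.

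The other junction members had no rhythm past the threshold. *Ocln* encodes occludin, a strand protein of tight junctions, *Tjp1* encodes ZO-1, which ties the strands to actin, and *Cldn12* encodes a further claudin. JTK_CYCLE gave adjusted p-values of 1 for all 3 genes in both diets. Their amplitudes lay between 0.06 and 0.15, with standard errors of 0.07 to 0.11. That of *Ocln* in control mice, 0.10, was 0.03 without control mouse 4 at ZT2. It was also 0.03 with the mean log2 level of *Pecam1* and *Cdh5* as a covariate. Without single libraries, the amplitude of *Cldn12* in PLX5622 mice ran from 0.04 (without mouse 2 at ZT18) to 0.15 (without mouse 1 at ZT6). *Esam*, an adhesion molecule at endothelial junctions, had an amplitude of 0.05 ± 0.06 (SE) in control mice and 0.05 ± 0.05 in PLX5622 mice. *Ocln* in control mice at ZT2 ran from 3.64 to 10.2 TPM, the widest spread of any of its groups, and its highest mouse had 235 reads where a mouse with 5.44 TPM had 263.

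*Pecam1*, the endothelial adhesion molecule CD31, had no rhythm past the threshold. Its mean was highest at ZT2 in both diets, with 11.4 ± 1.498 TPM in control mice and 11.6 ± 0.870 TPM in PLX5622 mice (SD, n = 4). The lowest means were 8.84 ± 1.10 TPM at ZT18 on control chow and 9.79 ± 1.90 TPM at ZT10 with PLX5622, and the groups overlapped. Its amplitude was 0.12 ± 0.06 (SE) and 0.08 ± 0.05, and in PLX5622 mice it was 0.14 on the counts. *Cdh5*, the VE-cadherin of endothelial adherens junctions, had an amplitude of 0.06 ± 0.07 and 0.04 ± 0.07. JTK_CYCLE called neither in either diet, with adjusted p-values of at least 0.951. In control mice 0 of the 9 members other than *Cldn5* were called by JTK_CYCLE, where 0.0823% of all genes were called.

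**Figure D3:**
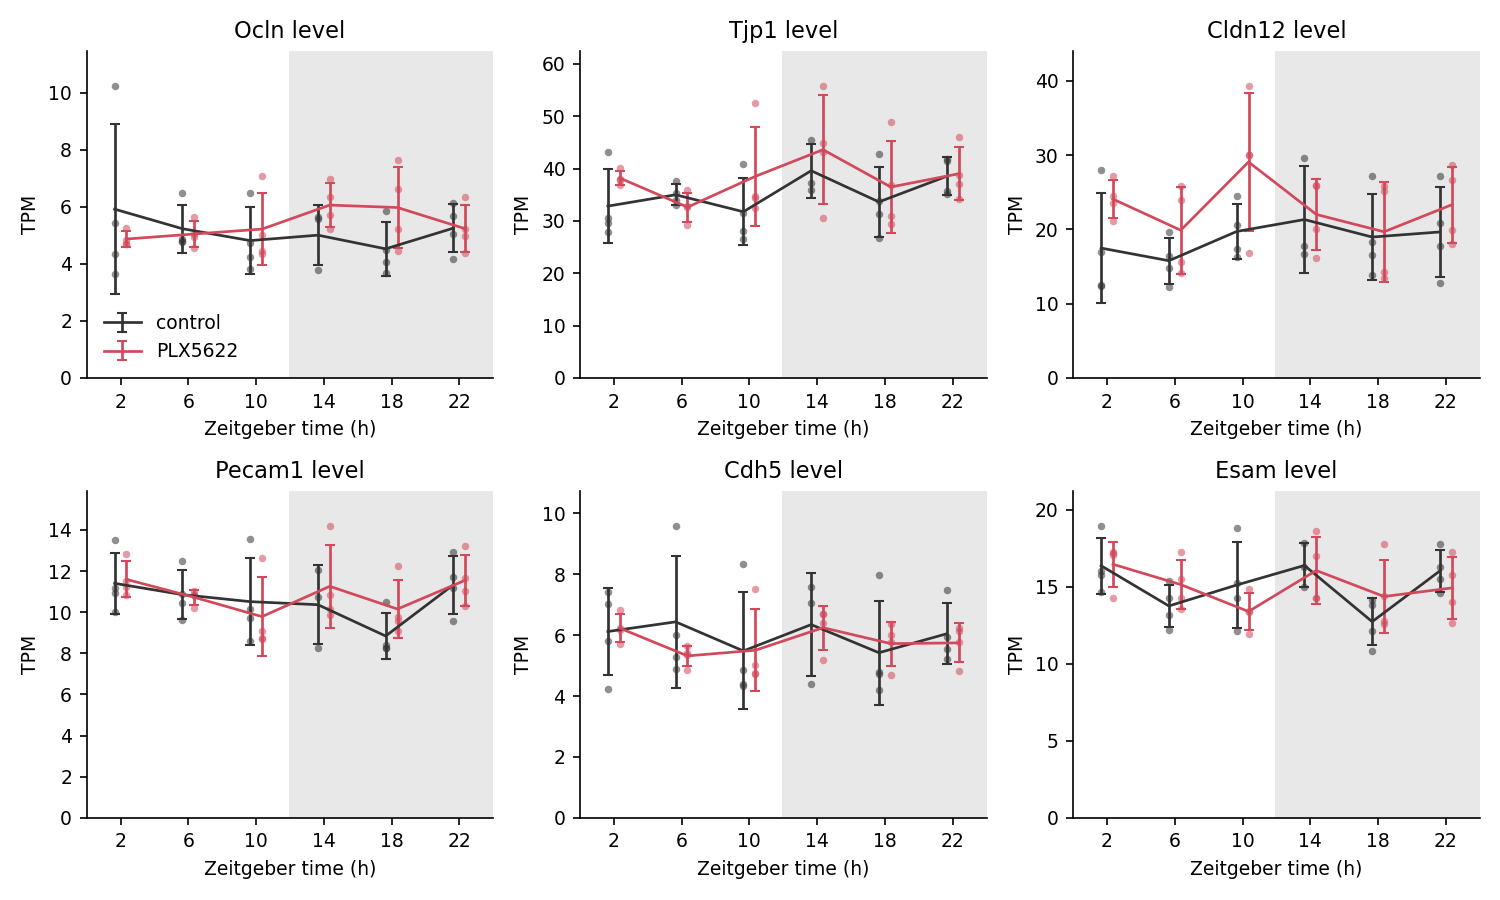
The 3 other junction members, *Ocln*, *Tjp1* and *Cldn12*, above *Pecam1*, *Cdh5* and *Esam*, in TPM for each mouse by Zeitgeber time (h). Points are mice (black control, red PLX5622), lines join group means, bars are the SD and grey marks the dark phase. The highest and lowest times overlap in all 6 genes, apart from *Esam* in control mice, and no gene has an adjusted p under 0.05 in JTK_CYCLE.

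A group of mice apart from another is common in these data when the highest and the lowest of 6 times are set against each other. The highest and the lowest time did not overlap for 3 of the 9 members other than *Cldn5* in control mice (*Slc2a1*, *Mfsd2a* and *Esam*) and for 4 of 10 in PLX5622 mice (*Cldn5*, *Slc2a1*, *Mfsd2a* and *Abcb1a*). Over all genes tested, this held for 30.4% in control mice and for 27.3% in PLX5622 mice, so the members' share in control mice was near that of all genes. The count in PLX5622 mice includes *Cldn5*, which was chosen for a rhythm, and no excess is read from it. The median amplitude of the members was 0.11 in both diets, beside 0.09 for all genes tested.

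Averaged over the day, no member's level differed between the diets past the threshold. In limma with the cosine and sine of time as covariates, 0 of 10 members passed the threshold for diet, where 3.45% of all genes did. The log2 fold change (PLX5622 minus control) was -0.02 for *Cldn5*, with a 95% interval from -0.13 to 0.10, and the means were 65.6 ± 15.0 TPM (SD, n = 23) in control and 64.2 ± 14.2 TPM (n = 24) in PLX5622 mice. It was 0.06 for *Slc2a1* (-0.07 to 0.19), -0.09 for *Mfsd2a* (-0.24 to 0.06) and 0.04 for *Abcb1a* (-0.09 to 0.16). For the endothelial measures it was 0.04 for *Pecam1* (-0.06 to 0.15) and -0.01 for *Cdh5* (-0.15 to 0.13). The median over the members was 0.04, beside 0.03 for all genes tested.

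*Cldn12* had the largest difference of the members. Its level was 18.7 ± 5.28 TPM (SD, n = 23) in control mice, with a lowest, median and highest mouse of 12.2, 17.4 and 29.6 TPM. In PLX5622 mice it was 23.0 ± 6.26 TPM (n = 24), with 13.5, 24.2 and 39.3 TPM. The diets overlapped widely, and the mean was higher with PLX5622 at 6 of 6 times. The limma log2 fold change was 0.28 ± 0.11 (SE) with an unadjusted p of 0.0131 and an adjusted p of 0.168. On the counts, the log2 fold change of *Cldn12* was 0.13 by edgeR, with an adjusted p of 0.0594. *Ocln* and *Tjp1* had log2 fold changes of 0.08 and 0.11, of which that of *Tjp1* was -0.01 by edgeR on the counts.

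**Figure D4:**
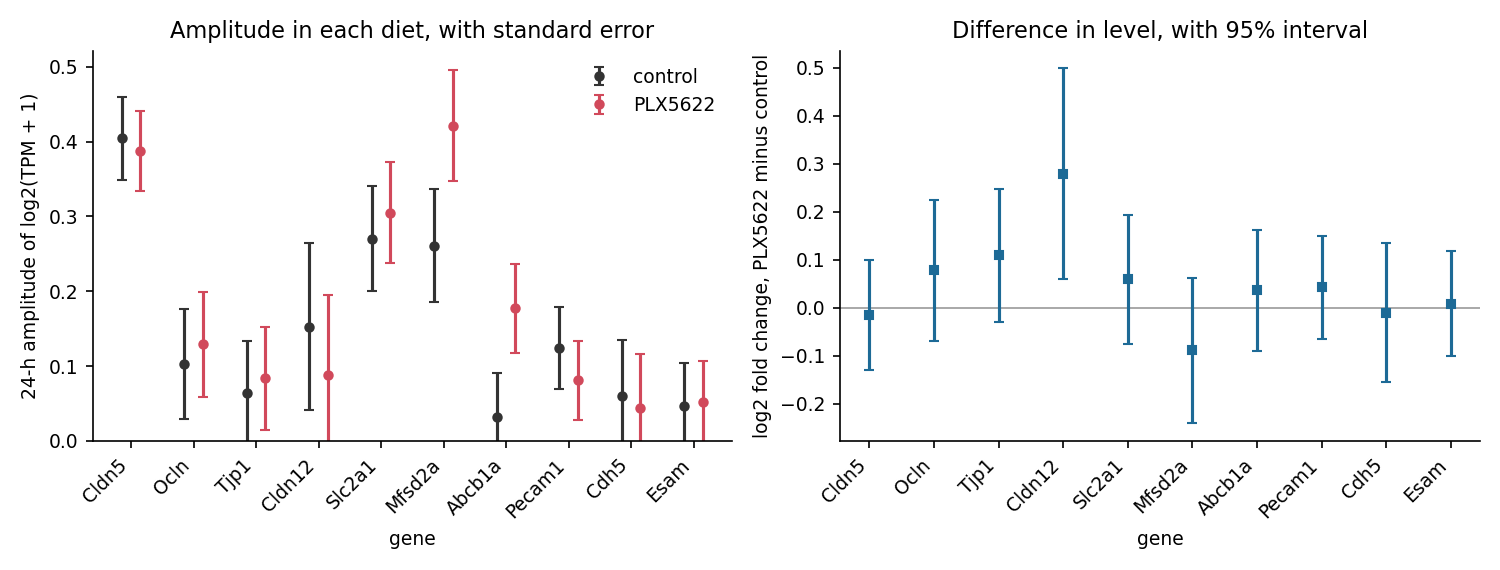
Left, the 24-h amplitude of log2(TPM + 1) for each member in control (black) and PLX5622 mice (red), with the standard error. Right, the log2 fold change of each member (PLX5622 minus control) with its 95% interval from limma, where *Cldn12* lies highest at 0.28 and the other 9 intervals include 0.

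The TPM and count tables tracked each other closely for some members and loosely for others. Over the 47 libraries, the ratio of TPM to depth-scaled counts varied 1.26-fold for *Cldn5* and 1.27-fold for *Slc2a1*. It varied 2.24-fold for *Ocln*, 2.19-fold for *Cldn12* and 1.92-fold for *Tjp1*. For *Cldn5*, the amplitude on the counts was 0.42 in control and 0.43 in PLX5622 mice.

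Other genes of the barrier were read from lists of junction, transporter and vessel genes. Among 16 other junction genes, 12 were tested, and 3 were called for diet, beside 3.45% of all genes. *F11r*, which encodes the junctional adhesion molecule JAM-A, fell by 0.85 on the log2 scale (adjusted p = 1.09e-16 in limma), from 6.67 to 3.26 TPM. *Cldn1* rose by 0.22 (adjusted p = 0.0154) and *Cldn10* by 0.14 (adjusted p = 0.0313), where the call of *Cldn10* was lost on the counts (edgeR adjusted p = 0.470) and with median-of-ratios scaling (adjusted p = 0.178). Among 15 other barrier transporters, 1 was called, and it fell: *Slco2b1*, an organic anion transporter, dropped by 1.04 (adjusted p = 1.17e-23), from 6.999 to 2.86 TPM. Both *F11r* and *Slco2b1* are also expressed in microglia, whose 8 markers fell with a median log2 fold change of -3.13, and the part of these cells in the results was not tested. The 7 choroid plexus markers tested had a median log2 fold change of 0.34, with *Ttr* (0.80) and *Kl* (0.40) called, and their part in the values of *Cldn1*, *Cldn10* and *Cldn12* was not tested.

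Of the 20 endothelial identity genes, 1 was called for diet, near the 3.45% of all genes. *Emcn*, a sialomucin of capillary and venous endothelium, rose by 0.30 on the log2 scale (adjusted p = 0.00509 in limma), from 4.31 to 5.54 TPM. The median of this list was 0.04. In the lists of caveolae and fenestrae (6 genes), barrier regulators (16), mural cells (12) and astrocyte endfeet (8), 0 genes were called for diet, with list medians of 0.02, 0.03, 0.04 and 0.00. The gene nearest to the threshold in each, in that order, was *Cav2* (log2 fold change 0.09), *Lrp5* (-0.15), *Rgs5* (0.09) and *Aqp4* (0.21), with adjusted p-values in limma of 0.237, 0.148, 0.238 and 0.126.

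For rhythm, 1 gene of these lists was called by JTK_CYCLE, beside 0.494% of all genes in PLX5622 mice and 0.0823% in control mice. Tested were 12 junction genes, 15 transporters, 6 caveolae genes, 20 endothelial identity genes, 16 regulators, 12 mural cell genes and 8 endfeet genes. *Cavin2*, a coat protein of caveolae, was called in PLX5622 mice with an adjusted p of 0.029 and its peak phase at ZT14. Its mean there was 6.94 ± 0.682 TPM at ZT14 and 4.42 ± 0.518 TPM at ZT2 (SD, n = 4), and in control mice 5.86 ± 0.505 TPM (n = 3) and 4.65 ± 0.618 TPM (n = 4). Its adjusted p was above 0.05 when any of 10 single libraries was left out, at most 0.0834 in JTK_CYCLE. No other gene of the lists for junctions, transporters, caveolae, endothelial identity, regulators, mural cells and endfeet was called in either diet. In the added test for any difference between times in PLX5622 mice, *Slc7a5*, *Slco1a4*, *Ly6c1* and *Fzd4* were called in limma, with adjusted p-values of 0.036, 0.0467, 0.0271 and 0.04. This test called 1.03% of all genes in PLX5622 mice. In control mice it called no gene of these lists, and 0.377% of all genes.

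The clock was running in both diets. *Dbp*, a direct target of the clock, had its highest mean at ZT14 and its lowest at ZT2, with 128 ± 11.5 TPM (SD, n = 3) and 52.2 ± 4.72 TPM (n = 4) in control mice, and with 126 ± 11.8 and 42.7 ± 2.702 TPM in PLX5622 mice (n = 4). JTK_CYCLE called it in both (adjusted p of 2.77e-05 and 1.85e-05). Of 14 clock genes, 4 were called in control mice, beside 0.0823% of all genes, and 7 in PLX5622 mice, beside 0.494%.

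The genes whose course over the 12 group means was most like that of *Cldn5* were ranked by Pearson's r on log2(TPM + 1), after centring each diet, over the 10549 genes that averaged 5 TPM or more. *Arntl*, which encodes the clock protein BMAL1, came first with r = 0.94. Its means were 14.5 ± 1.79 TPM at ZT2 and 8.24 ± 0.457 TPM at ZT10 in control mice, and 16.9 ± 2.25 and 8.58 ± 1.52 TPM in PLX5622 mice (SD, n = 4). *Slc6a13* (0.91), *Txlng* (0.90), *Soat1* (0.90), *Mmp14* (0.89) and *Gon7* (0.88) followed. These r values describe 12 means that share their libraries and times, and control values of *Cldn5* entered them. Among members, *Pecam1* was the most like *Cldn5* (r = 0.79, rank 39), followed by *Cdh5* (0.54) and *Esam* (0.53). *Slc2a1* (r = -0.54) and *Cldn12* (-0.47) ran against it, and *Mfsd2a* (-0.19), *Tjp1* (0.004) and *Abcb1a* (0.10) had little likeness to it. For *Ocln* r was 0.26, and it differed between the diets, with 0.91 in control and -0.26 in PLX5622 mice.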

How the data were processed

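The authors mapped the reads with STAR to GRCm38.p6 and computed TPM with Salmon and GENCODE. The TPM values deposited were used as they stand. A further table, named for FPKM, holds the deposited whole-number counts per gene, without normalization. The submitters' processing notes name featureCounts, with no role given, and for the counts the mapper and annotation are not given in the sources used here. Symbols came from GENCODE M21. Libraries were grouped by the labels. Mice were housed 4 to a cage, and which mice shared a cage is not given in the sources used here.

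The main tests were limma 3.58.1 (R 4.3.3) on log2(TPM + 1) and JTK_CYCLE, rewritten in Python 3.11.15 with a period of 24 h and 6 phases, with Benjamini-Hochberg adjustment over 14580 genes and a threshold of 0.05. Fold changes are on the log2(TPM + 1) scale and understate changes of low genes. Amplitudes and their standard errors came from the limma fit with interactions. The scripts were tested on simulated data. Alternatives were other filters, pseudocounts and scalings, and limma with a trend, with time as a factor, with a replicate block or with an endothelial covariate. This covariate was the mean log2 level of *Pecam1* and *Cdh5* in each library. Further alternatives were edgeR 4.0.16 and DESeq2 1.42.0 on the counts, and each library left out in turn.

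The members and the gene lists were chosen with earlier results of these data known. Named genes were the 10 members, the 6 genes most like *Cldn5*, up to 4 called genes of each vessel list or else that with the smallest p, and *Dbp*. Promoter sequences are RefSeq's (GRCm38.p6). Libraries of a group differed by more than counting error in all 69 pairs (chi-square per degree of freedom of at least 4.56), so all were kept as separate mice.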

Additional observations from a re-analysis of the deposited data

Results flagged for a closer look

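Single mice far from the other 3 of their group (Dixon's test at the 95% level) were found for members in 10 of 110 groups of 4, where chance gives about 1 in 20. The control group at ZT14, with 3 mice, was not tested.

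PLX5622 mouse 1 at ZT10 stood above its group for 4 members. It had 52.5 TPM of *Tjp1* (others 32.4 to 34.8), 68.0 TPM of *Slc2a1* (others 45.4 to 47.3), 12.6 TPM of *Pecam1* (others 8.69 to 9.10) and 7.51 TPM of *Cdh5* (others 4.71 to 5.03). Its *Cldn5* level, 48.4 TPM, was the highest of its group by a small margin over 47.7 TPM.

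Control mouse 2 at ZT18 stood above its group for 3 members, with 22.8 TPM of *Mfsd2a* (others 17.6 to 17.95), 10.5 TPM of *Pecam1* (others 8.24 to 8.38) and 7.97 TPM of *Cdh5* (others 4.21 to 4.81). Control mouse 2 at ZT10 had 8.35 TPM of *Cdh5*, against 4.33 to 4.86 TPM in the others.

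The remaining flags were 6.48 TPM of *Ocln* in control mouse 4 at ZT6 (others 4.77 to 4.86) and 14.3 TPM of *Esam* in PLX5622 mouse 4 at ZT2 (others 17.1 to 17.3).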

How the results depend on the processing

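In all alternatives run, 0 of 10 members were called for diet and 0 for a difference in rhythm, and *Cldn5* was called for rhythm in PLX5622 mice. The number of members called for rhythm in PLX5622 mice, 1 by JTK_CYCLE, was 3 with the limma F test, median-of-ratios scaling, the replicate block, edgeR, time as a factor, or (of 8 members without *Pecam1* and *Cdh5*) the endothelial covariate, and 4 with DESeq2. These 3 were *Cldn5*, *Mfsd2a* and *Slc2a1*, and DESeq2 added *Abcb1a*. Without single libraries it was 1 to 2, and *Mfsd2a* was called without PLX5622 mouse 2 (adjusted p = 0.0341 by JTK_CYCLE) or mouse 3 (0.0459) at ZT18, or mouse 1 (0.0435) or mouse 2 (0.0377) at ZT2. For *Cldn5* the adjusted p was 0.00193 to 0.0209 without single libraries. In control mice, 0 of 9 members were called by JTK_CYCLE, 2 (*Slc2a1* and *Mfsd2a*) with edgeR or DESeq2, and 1 of 7 (*Slc2a1*) with the endothelial covariate. The log2 fold change for diet turned sign for *Tjp1* with edgeR (-0.014) and DESeq2 (-0.016), and for *Esam* with edgeR (-0.020), DESeq2 (-0.023) and median-of-ratios scaling (-0.014). Without single libraries it ran from -0.035 to 0.0068 for *Cldn5*, from -0.029 to 0.020 for *Cdh5* and from -0.010 to 0.026 for *Esam*. *Cldn10* lost its call for diet with median-of-ratios scaling, edgeR and DESeq2, and without control mouse 2 at ZT6, mouse 1 or 4 at ZT18 or PLX5622 mouse 2 at ZT2 (adjusted p of 0.0506 to 0.0558 in limma). *Cavin2* lost its rhythm call without a filter (0.0592), in the test of any difference between times (0.0518), and without PLX5622 mouse 3 or 4 at ZT2, mouse 1, 3 or 4 at ZT10, any mouse at ZT14 or mouse 4 at ZT18 (0.0548 to 0.0834). Amplitudes moved by more than their SE for *Ocln* in control mice (0.027 without mouse 4 at ZT2, 0.029 with the endothelial covariate), *Pecam1* in PLX5622 mice (0.145 on the counts) and *Slc2a1* in control mice (0.349 with that covariate). The cause of these changes was not tested. Over all genes, calls for diet numbered 503 by limma, 298 among genes of at least 5 TPM, 1243 by edgeR and 1355 by DESeq2. For rhythm in PLX5622 mice they were 72 by JTK_CYCLE, 157 with median-of-ratios scaling, 135 with the limma F test, 153 with the replicate block, 387 by edgeR and 850 by DESeq2, and in control mice 12, 56, 36, 68, 252 and 711. With the endothelial covariate they were 219 and 75, with time as a factor 150 and 55, and in control mice without a filter 6.

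Mice share replicate numbers between groups. Deviations of same-numbered mice correlated with a median of 0.05 over 253 pairs, with 76 above 0.1 and a maximum of 0.30. For mice with other numbers the median was -0.02. The main tests left the numbers out, and with the replicate block 578 genes were called for diet in limma, beside 503 without it. Whether same-numbered mice were linked was not tested. Counting error of a member in a single library was at most 7.76%.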
